A study of Mus musculus with 10 samples.

Results

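Expressed Zfp zinc finger genes were followed in cultured mouse neurons given SP600125, a small molecule that blocks JNK, the stress-activated kinase of JUN. The members are all genes whose symbol is Zfp followed by a number and whose mean log2 signal over the 5 DMSO arrays was 6 or more. Of 19938 genes measured, 317 had such a symbol and 165 of these reached that level. For a gene with several probe sets of 1 symbol, the one brightest on average across the 10 arrays was taken. Members were thus selected on their DMSO signal, so their levels below are a description. Because that signal is also one side of the difference between the groups, members were also chosen by the mean over all 10 arrays. Of those 158 genes 74 fell and 7 rose (median -0.17). Counts of other genes chosen that way are not given here, so these counts alone do not compare Zfp genes with other genes.

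The cells were terminally differentiated neurons of strain 129Sv-C57Bl/6. The treated group received SP600125 at 25 µM in 3 doses spaced by 2 hours, the control group received DMSO on the same schedule, and the labels name no genetic change in either. Each group had 5 biological replicates, a and b with batch 1 of the agent and c, d and e with batch 2, here called the drug batch. Whether replicates were separate cultures is not stated, and the tests then cover the variation among these arrays alone, which may be technical.

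Most proteins named Zfp carry C2H2 zinc fingers, small folds held by a zinc ion in which cysteine and histidine residues grip the metal. A row of such fingers reads DNA sequence, and arrays of fingers are found in many transcription factors. Many members also carry a KRAB domain. KRAB recruits the corepressor TRIM28 (KAP1), which brings the histone H3K9 methyltransferase SETDB1, HP1 proteins and the NuRD deacetylase complex to silence retrotransposons and genes. Many of these genes lie in clusters that arose by duplication, and closely related copies can share probe sequence, so the signal of a single copy is uncertain.

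Taken over all bins of DMSO signal, about as many of the expressed Zfp genes were lower after SP600125 as of other genes. Within bins the shares differed in opposite directions. Between 6 and 7, 50.0% of Zfp genes and 38.5% of other genes fell, and between 7 and 8, 44.2% and 61.4%. With limma, drug batch as a term and Benjamini-Hochberg adjustment over all 19938 genes (threshold 0.05), 81 of the 165 fell, 4 rose and 80 did not pass. Over all genes tested, 29.9% fell and 17.0% rose, 46.9% in either direction. Among the 9739 other genes with a DMSO signal of 6 or more, 55.0% fell and 3.58% rose, and weighting these genes to the number of Zfp genes in each signal bin gave 48.8% that fell and 4.56% that rose, against 49.1% and 2.42% of the Zfp genes. The median log2 change (SP600125 minus DMSO) of the Zfp genes was -0.18, with the middle of the distribution running from -0.29 (25th percentile) to -0.07 (75th percentile). It was -0.17 for other genes weighted to the same signal bins and -0.03 over all genes. The Zfp median thus lay 0.01 below its same-level counterpart (a difference of -0.00896). The Zfp median itself had an SD of 0.0376 between the 5 SP600125 arrays. That SD includes shifts that other genes share, so it does not measure the spread of the difference.

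In these bulk samples fewer cells of a type and less RNA per cell cannot be told apart. The changes were small. Of the 81 falls, 29 were larger than 0.32 on the log2 scale and 1, that of Zfp788, was larger than 0.58, and 1 of the 4 rises, that of Zfp93, was larger than 0.32. The estimates of 148 members lay below 0 and those of 17 above 0. Of the 9739 other genes at a signal of 6 or more, 8277 lay below 0 and 1462 above 0. Among these other genes 2440 falls were larger than 0.32 and 260 larger than 0.58, and 137 rises were larger than 0.32. Members' changes ran from -0.71 to 0.34, and the median SE was 0.0699.

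**Figure D1:**
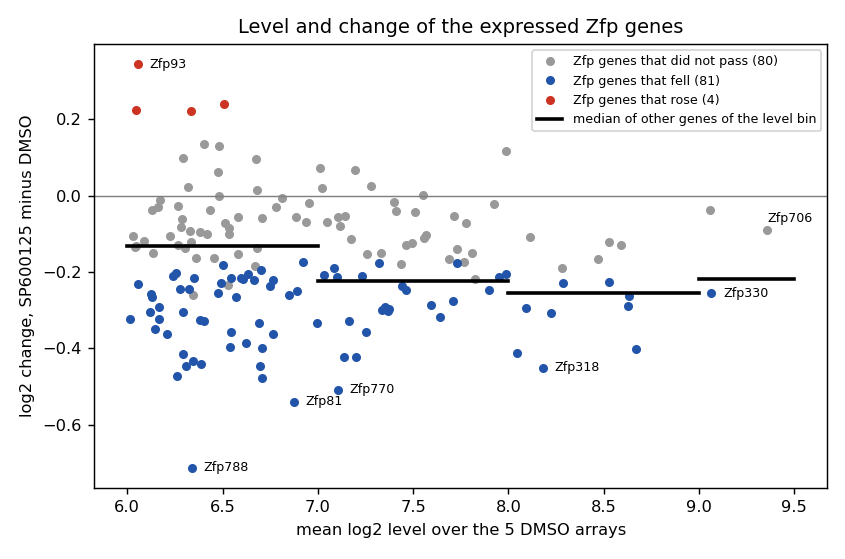
The change of each of the 165 Zfp genes (vertical axis, log2, SP600125 minus DMSO) against its mean log2 signal on the 5 DMSO arrays (horizontal axis), coloured by the limma call, with black bars for the median change of other genes in the bins 6 to 7, 7 to 8, 8 to 9 and 9 or more. The 81 falls are spread over signals from 6.01 to 9.07, and the 4 rises lie below a signal of 7.

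The same split was seen array by array. The median over the 165 genes of the difference from each gene's own DMSO mean was 0.02 on DMSO array a, -0.08 on b, 0.02 on c, 0.02 on d and 0.01 on e. On the SP600125 arrays it was -0.19 on a, -0.12 on b, -0.14 on c, -0.21 on d and -0.19 on e. No SP600125 array overlapped the DMSO arrays, and DMSO array b and SP600125 array b came closest. Other genes at a signal of 6 or more gave -0.02, -0.06, 0.03, 0.02 and 0.02 on the DMSO arrays and -0.26, -0.15, -0.15, -0.22 and -0.19 on the SP600125 arrays, in the same order. Between the b arrays alone the Zfp median was -0.04, with 109 of 165 genes lower on the SP600125 array. Between arrays of the same letter it was -0.20 for a, -0.16 for c, -0.22 for d and -0.22 for e. With both b arrays left out, a setting chosen after the data were seen, 87 members fell and 4 rose. The share of other genes that fell without these arrays is not given here.

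**Figure D2:**
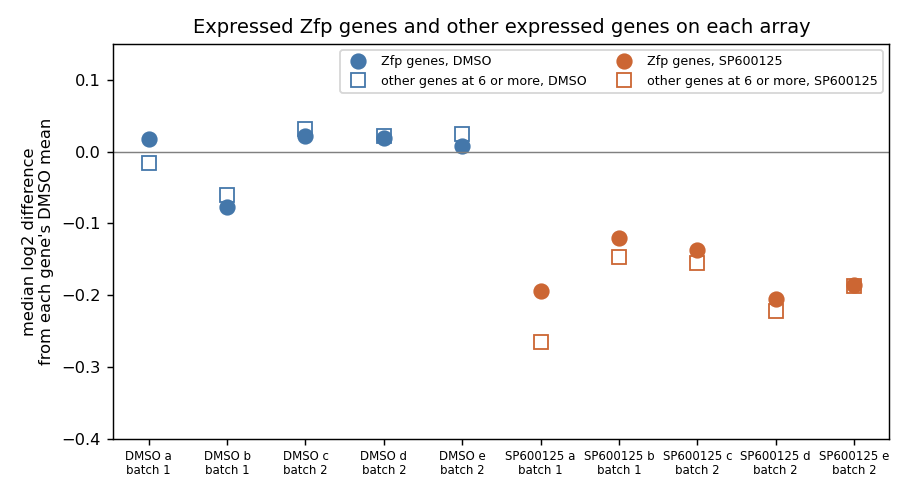
Median log2 difference from each gene's DMSO mean on each of the 10 arrays, for the 165 Zfp genes (filled circles) and the 9739 other genes with a signal of 6 or more (open squares). The Zfp medians run from -0.08 to 0.02 on the DMSO arrays and from -0.21 to -0.12 on the SP600125 arrays, and the squares lie close to the circles except on SP600125 array a.

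In 54 members every SP600125 array lay below every DMSO array of the same drug batch, in both batches, and in 2 members every one lay above. Over all genes 21.1% were apart in the lower direction and 10.2% in the higher one. The share of the Zfp genes that was apart and lower was 32.7%, and that of the other genes at a signal of 6 or more was 39.6%. By drug batch, the members' median change was -0.15 (batch 1) and -0.20 (batch 2).

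Members differed by signal bin. Between 6 and 7, 48 of 96 Zfp genes fell and 4 rose (median -0.19), where 38.5% of 3460 other genes fell (median -0.13). Between 7 and 8, 23 of 52 fell and none rose (median -0.17), where 61.4% of 3381 other genes fell (median -0.22). Between 8 and 9, 9 of 14 fell (median -0.25, against -0.25 for 1873 other genes, of which 68.8% fell). At 9 or more there were 3 members, and 1 of them fell. The 2 lower bins differed from the other genes in opposite directions, and that difference was not tested. Over the 165 genes the change was hardly related to the DMSO signal (Pearson r = -0.05, Spearman rho = -0.04, n = 165), a description across genes that share arrays and are not independent.

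Zfp genes under the threshold stood further from other genes of their signal, a difference that was not tested. Of 152 Zfp genes with a DMSO signal under 6, 37 fell, 17 rose and 98 did not pass (median -0.06), while of 9882 other genes under 6, 4.92% fell and 30.6% rose (median 0.12). The Zfp shares were 24.3% and 11.2%. Between 5 and 6, 29 of 94 Zfp genes fell and 8 rose, against 11.1% and 27.3% of 3497 other genes. Without olfactory and vomeronasal receptor genes and predicted or unnamed genes, a restriction chosen after the values were seen, 375 of 3119 other genes between 5 and 6 fell and 774 rose. These counts depended on the scaling. After quantile normalization 60 of the 152 Zfp genes fell and 7 rose (median -0.16), while of the 9882 other genes 1115 fell and 890 rose (median 0.00360). Under all 5 scalings the Zfp median under 6 was below that of the other genes, a gap that centring cannot change. Under the threshold the largest falls were those of Zfp931 (-0.84, SE 0.25) and Zfp72 (-0.82, SE 0.09), named here after their values were seen. Zfp931 overlapped between the groups and changed by -1.56 in drug batch 1 and -0.36 in batch 2. The largest rises there, also named with their values known, were Zfp600 (0.83, SE 0.15) and Zfp980 (0.66, SE 0.14). Their DMSO means were 2.81 and 3.79. The 3 members just inside the threshold were Zfp697 (DMSO mean 6.01), Zfp217 (6.03) and Zfp710 (6.04), and the 3 genes just outside were Zfp131 (6.00), Zfp661 (5.99) and Zfp839 (5.98).

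**Figure D3:**
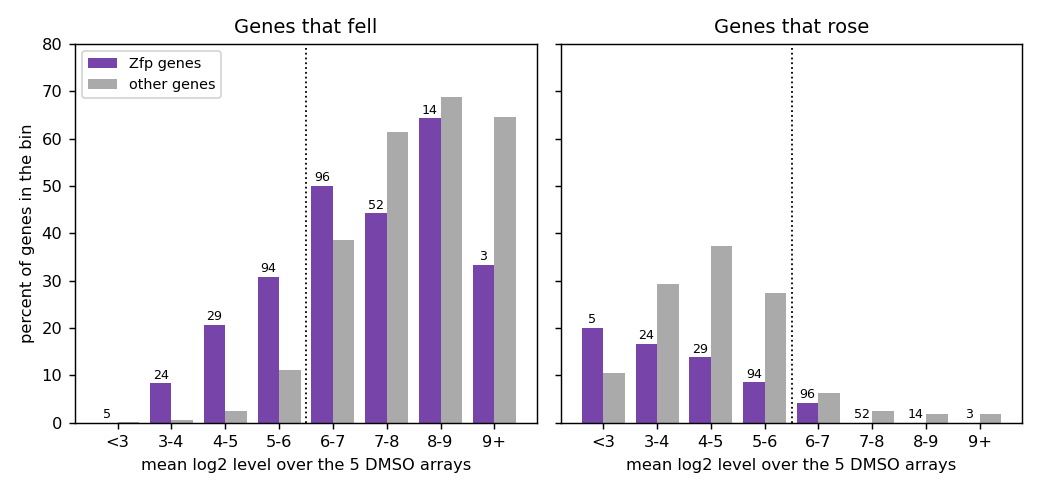
Percent of genes that fell (left) and rose (right) by mean log2 signal on the 5 DMSO arrays, for Zfp genes (purple, with the number of genes above each bar) and other genes (grey); the dotted line marks the threshold of 6. To its right 50.0% of the Zfp genes between 6 and 7 fell, to its left the grey bars for rises exceed the purple ones in the 3 bins from 3 to 6.

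The way the arrays were scaled set how many members passed. After quantile normalization 52 fell and 5 rose, and after cyclic loess 35 fell and 14 rose. After centring arrays on the median of all probe sets 128 fell and 1 rose. Centring on named genes gave 70 falls and 5 rises. The falls were 31.5%, 21.2%, 77.6% and 42.4% of the members, in that order. Of other genes at a signal of 6 or more, 33.5%, 25.2%, 74.7% and 47.1% fell. The share of calls that were falls was 95.3% as deposited and 71.4% after cyclic loess. It was 93.9% and 73.8% for other genes at a signal of 6 or more, and 63.8% and 65.3% for all genes. The Zfp median was negative under each of these scalings, from -0.28 to -0.08. Its difference from the same-level median ran from -0.00896 to -0.00651. Centring shifts all genes of an array alike and cannot change this difference, so only quantile normalization (-0.00651) and cyclic loess (-0.00883) could move it. Centring on all probe sets moved the median of all genes by -0.10, and the other scalings moved it by less. Array signals moved with the treatment: the SD over genes was 1.81 ± 0.03 on DMSO arrays and 1.68 ± 0.03 on SP600125 arrays (mean ± SD, n = 5), and the part of this in the members' changes was not tested.

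**Figure D4:**
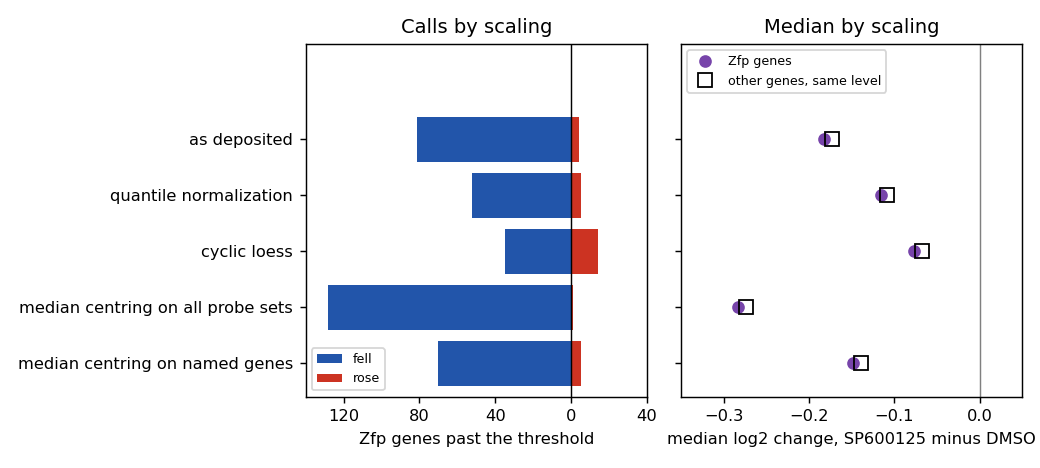
Left, the number of the 165 Zfp genes that fell (bars to the left of 0) and rose (to the right) under each of 5 scalings. Right, the median log2 change of the Zfp genes (circles) and of other genes weighted to the same signal bins (squares). The number of falls runs from 35 to 128, while each circle stays beside its square. Under the centrings the gap between circle and square equals that of the deposited values by construction.

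Of the members, 34 fell under all 5 scalings and 1, Zfp93, rose under all 5. No member fell under one scaling and rose under another. Of the other genes at a signal of 6 or more, 24.9% fell and 1.80% rose under all 5, and of the members 20.6% fell and 0.606% rose. Among the 34 were Zfp788, Zfp81, Zfp770, Zfp711, Zfp810 and Zfp318, and also Zfp451, a SUMO ligase (-0.41, SE 0.07), Zfp146, a protein made almost only of fingers (-0.40, SE 0.07), Zfp346, which binds double-stranded RNA (-0.33, SE 0.08), and Zfp326, a partner of RNA polymerase II in splicing control (-0.33, SE 0.06). These last 4 are named with their values known.

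Promoters were read from RefSeq (GRCm38.p6) as the 250 bases before each annotated start, 167 windows for 134 of the 165 members. The windows below are shown because they belong to 3 of the largest falls, to the member that rose under every scaling and to the neighbours Zfp174 and Zfp597. They lie at chr17:33358879-33359128 on the minus strand for Zfp81, chr2:114201433-114201682 on the minus strand for Zfp770, chr9:22307639-22307888 on the minus strand for Zfp810, chr7:24270168-24270417 on the plus strand for Zfp93, chr16:3846973-3847222 on the plus strand for Zfp174 and chr16:3872375-3872624 on the minus strand for Zfp597. Each is written 5′ to 3′ in the gene's direction, and capitals mark the motifs searched for on both strands, as listed after the sequences.
Zfp81: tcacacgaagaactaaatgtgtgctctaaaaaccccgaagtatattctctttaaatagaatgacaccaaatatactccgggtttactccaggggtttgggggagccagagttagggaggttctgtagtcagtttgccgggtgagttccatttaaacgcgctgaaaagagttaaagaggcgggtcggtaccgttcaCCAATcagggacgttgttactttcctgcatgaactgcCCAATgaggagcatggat
Zfp770: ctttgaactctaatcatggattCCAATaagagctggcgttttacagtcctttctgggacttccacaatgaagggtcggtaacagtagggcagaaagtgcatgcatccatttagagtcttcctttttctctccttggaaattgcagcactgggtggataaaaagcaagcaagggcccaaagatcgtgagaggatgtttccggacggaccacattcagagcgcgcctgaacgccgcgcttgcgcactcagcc
Zfp810: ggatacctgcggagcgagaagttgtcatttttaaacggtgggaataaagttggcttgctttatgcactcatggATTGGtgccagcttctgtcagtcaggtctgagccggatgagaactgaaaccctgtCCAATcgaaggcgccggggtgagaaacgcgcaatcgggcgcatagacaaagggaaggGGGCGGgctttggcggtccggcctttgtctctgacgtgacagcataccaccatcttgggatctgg
Zfp93: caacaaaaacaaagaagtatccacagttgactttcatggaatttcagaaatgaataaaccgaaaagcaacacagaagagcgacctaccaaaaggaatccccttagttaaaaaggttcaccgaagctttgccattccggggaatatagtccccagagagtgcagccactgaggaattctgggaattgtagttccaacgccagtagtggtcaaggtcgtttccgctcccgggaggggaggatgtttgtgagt
Zfp174: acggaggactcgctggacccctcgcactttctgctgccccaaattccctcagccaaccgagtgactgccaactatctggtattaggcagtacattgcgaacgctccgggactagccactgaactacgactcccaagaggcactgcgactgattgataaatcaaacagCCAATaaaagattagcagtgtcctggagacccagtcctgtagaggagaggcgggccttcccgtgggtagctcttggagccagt
Zfp597: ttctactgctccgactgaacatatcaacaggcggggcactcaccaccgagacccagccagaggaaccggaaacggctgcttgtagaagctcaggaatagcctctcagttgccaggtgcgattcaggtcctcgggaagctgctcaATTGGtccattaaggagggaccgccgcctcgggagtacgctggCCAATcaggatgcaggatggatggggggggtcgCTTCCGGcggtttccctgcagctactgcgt

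The motifs were CCAAT (bound by NF-Y), TGACGTCA (the cAMP response element, CRE, bound by CREB, ATF and JUN dimers), TGACTCA (bound by AP-1), CCGGAAG (bound by ETS factors) and GGGCGG (the GC box, bound by SP factors), each also read as its reverse complement, and none contains another. CCAAT stood in 42.5% of the members' windows, in 34.4% of 10180 windows of other genes at a signal of 6 or more and in 33.8% of all 32851 windows. CCGGAAG stood in 19.2%, 13.1% and 6.91% of them and GGGCGG in 48.5%, 60.0% and 32.7%, in the same order. TGACGTCA was in 4 and TGACTCA in 6 of the 167 windows, or 2.40% and 3.59%, against 2.77% and 2.82% of windows of other genes at a signal of 6 or more and 1.55% and 4.46% of all windows. These shares are descriptions, since windows differ in base composition, with a median GC content of 56.4% for members and 60.8% for other genes at a signal of 6 or more.

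Calls were split by CCAAT. Of 63 members with CCAAT in a window, 33 fell and 2 rose (median -0.19), and of 71 with a window but no CCAAT, 34 fell and 2 rose (median -0.20), or 52.4% and 47.9% that fell. Among other genes at a signal of 6 or more 54.7% fell with CCAAT and 55.3% without. By windows, CCGGAAG stood in 18.3% of those of members that fell and 20.0% of those of members that did not, and GGGCGG in 48.8% and 48.2%. Among the sequences shown, CCAAT stands in those of Zfp81, Zfp770 and Zfp810, which fell, in those of the neighbours Zfp174, which rose, and Zfp597, which fell, and not in that of Zfp93, which rose. The 6 members with TGACTCA were Zfp329, Zfp790, Zfp869 and Zfp57, which fell, and Zfp511 and Zfp871, which did not pass. The 4 with TGACGTCA were Zfp266, which fell, and Zfp335, Zfp367 and Zfp523, which did not pass.

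The largest fall among the members was that of Zfp788. It read 6.49, 5.99, 6.47, 6.31 and 6.42 on DMSO arrays a to e and 5.47, 5.87, 5.69, 5.49 and 5.60 on the SP600125 arrays. The groups did not overlap, and DMSO array b was the lowest of its group while SP600125 array b was the highest of its own. Zfp788 fell (-0.71, SE 0.10, limma adjusted p = 0.000259). A second probe set of that name held identical values, so the 2 are a single measurement.

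Zfp81 read 7.14, 6.77, 6.78, 6.75 and 6.92 on the DMSO arrays and 6.21, 6.28, 6.42, 6.27 and 6.48 on the SP600125 arrays. Every treated array was lower than every control array (-0.54, SE 0.08, limma adjusted p = 0.000389). Zfp770 read 7.22, 6.92, 7.15, 7.03 and 7.20 after DMSO and 6.47, 6.90, 6.67, 6.46 and 6.47 after SP600125. Its b arrays nearly met, and the groups did not overlap (-0.51, SE 0.09, limma adjusted p = 0.000948).

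Zfp810 read 6.31, 6.16, 6.12, 6.45 and 6.26 after DMSO and 5.93, 5.84, 5.85, 5.54 and 5.78 after SP600125, with no overlap (-0.47, SE 0.08). Zfp318, which is needed for the long immunoglobulin transcripts that encode IgD in B cells, read 8.23, 8.13, 8.20, 8.12 and 8.21 after DMSO. After SP600125 it read 7.55, 8.01, 7.73, 7.59 and 7.76, below all control arrays (-0.45, SE 0.08). Zfp654, Zfp941, Zfp3, Zfp37 and Zfp719 completed the 10 largest falls with separate arrays in both batches, with changes from -0.45 to -0.42 and limma adjusted p from 0.000437 to 0.00186.

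Zfp711, an X-linked gene tied to intellectual disability in humans, also fell (-0.48, SE 0.11, limma adjusted p = 0.00332), but its groups overlapped. It read 6.82, 6.66, 6.81, 6.48 and 6.78 after DMSO and 6.26, 6.73, 6.14, 6.13 and 5.90 after SP600125, so that SP600125 array b stood among the controls. The batches gave -0.24 (batch 1) and -0.63 (batch 2).

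The 4 rises were all at a signal under 7. By the naming rule only Zfp174 and Zfp691, with separate arrays in both batches, would be named, and Zfp93 and Zfp764 were added with their values known. Zfp691 read 6.26, 6.35, 6.30, 6.38 and 6.39 after DMSO and 6.63, 6.67, 6.51, 6.51 and 6.46 after SP600125, with every treated array above every control array (0.22, SE 0.06, limma adjusted p = 0.0093). Zfp174, which carries a SCAN domain, a dimerization module, read 5.99, 6.05, 6.14, 5.97 and 6.07 after DMSO and 6.07, 6.35, 6.31, 6.24 and 6.37 after SP600125 (0.22, SE 0.07, limma adjusted p = 0.0146). Its arrays were separate within each batch, but SP600125 array a lay below DMSO array c.

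Zfp93 read 5.86, 6.24, 5.88, 6.30 and 6.01 after DMSO and 6.48, 6.21, 6.28, 6.55 and 6.49 after SP600125, and its groups overlapped (0.34, SE 0.10, limma adjusted p = 0.0117). Zfp764 also overlapped, with 6.43 to 6.61 after DMSO and 6.53 to 6.94 after SP600125 (0.24, SE 0.08, limma adjusted p = 0.0269). After centring on all probe sets Zfp174 and Zfp691 no longer passed, and only Zfp93 of the 4 rose.

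**Figure D5:**
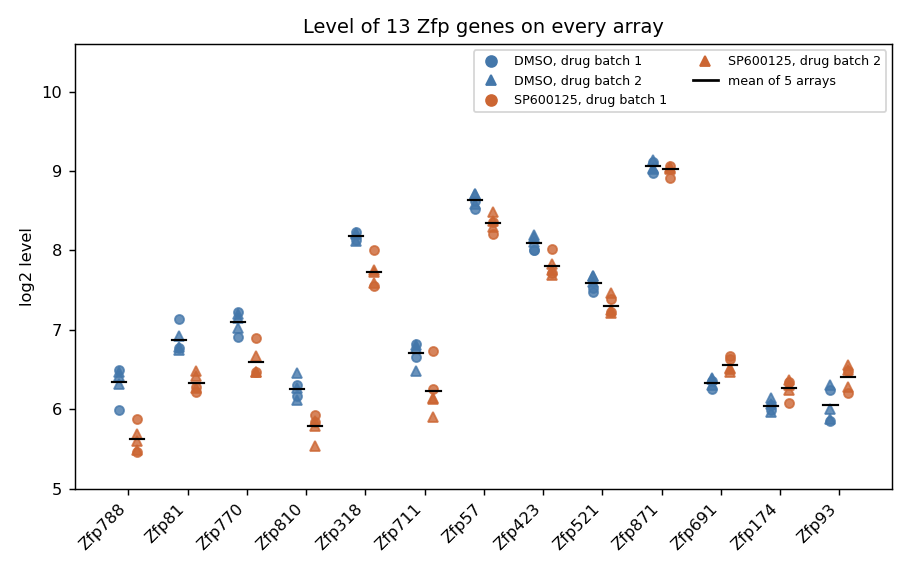
Log2 signal (vertical axis) of 13 Zfp genes on each array, DMSO in blue and SP600125 in orange, with circles for drug batch 1, triangles for drug batch 2 and a black line for the mean of 5 arrays. Zfp81 and Zfp318 show no overlap between the groups, a batch 1 circle of SP600125 lies among the controls for Zfp711, and Zfp871 shows overlapping groups.

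The next members come from a written list of genes with a known role. Zfp57, a KRAB protein that keeps DNA methylation at imprinted loci, read 8.53, 8.62, 8.71, 8.58 and 8.70 after DMSO. It read 8.36, 8.21, 8.29, 8.37 and 8.48 after SP600125, all below the control arrays (-0.29, SE 0.06, limma adjusted p = 0.00266). Zfp521 and Zfp423, related factors that act with EBF proteins in neural and fat cell differentiation, fell by 0.29 (SE 0.07) and 0.30 (SE 0.07). Zfp521 read 7.47 to 7.68 after DMSO and 7.22 to 7.46 after SP600125, without overlap, and SP600125 array b of Zfp423 (8.01) lay just above the 2 lowest of its DMSO arrays.

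Zfp462, a large nuclear protein of neural development, fell by 0.26 (SE 0.07). Zfp110 (NRIF), which signals from the p75 neurotrophin receptor, fell by 0.24 (SE 0.07), with 6.22 to 6.32 after DMSO and 5.85 to 6.17 after SP600125. Zfp148 (ZBP-89), a factor that binds GC-rich promoters, fell by 0.23 (SE 0.07), and Zfp281, a factor known from pluripotent cells, fell by 0.21 (SE 0.07). After cyclic loess Zfp110 and Zfp711 of these still passed (-0.23 and -0.41), while Zfp57 (-0.11), Zfp521 (-0.11), Zfp423 (-0.11), Zfp462 (-0.08), Zfp148 (-0.04) and Zfp281 (-0.02) did not, with limma adjusted p from 0.165 to 0.873. They did not pass after quantile normalization either, with limma adjusted p from 0.0543 to 0.422. Without DMSO array a, without SP600125 array a or without SP600125 array d, Zfp148 and Zfp281 lost their call.

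Of the same list Zfp106, Zfp207, Zfp292 and Zfp335 did not pass. Zfp106, an RNA-binding protein that motor neurons need, differed by -0.17 (SE 0.07, limma adjusted p = 0.0508), and Zfp207 (BuGZ), a spindle assembly protein, by -0.17 (SE 0.07, limma adjusted p = 0.0592). Zfp292 had -0.12 (SE 0.06), and Zfp335, a chromatin factor of neural progenitors, had -0.08 (SE 0.06). After cyclic loess the estimates of Zfp106, Zfp207 and Zfp292 lay just above 0 (0.01, 0.02 and 0.05) and did not pass.

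The members with the brightest probe sets, whose signals also depend on their probes, were Zfp706 (DMSO mean 9.36), Zfp330 (9.07), a nucleolar protein, and Zfp871 (9.06). Zfp330 fell by 0.25 (SE 0.07, limma adjusted p = 0.0116), but did not pass after quantile normalization (-0.14) or cyclic loess (-0.09). Zfp871 differed by -0.04 (SE 0.06, limma adjusted p = 0.605), with 8.98 to 9.14 after DMSO and 8.92 to 9.07 after SP600125. Zfp706 differed by -0.09 (SE 0.06).

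For 9 members several probe sets were present, and in 4 of them the probe sets differed in sign. The used and the dimmer probe set gave -0.10 and 0.42 for Zfp319, 0.13 and -0.05 for Zfp395, -0.13 and 0.05 for Zfp664, and 0.12 and -0.11 for Zfp825. None of these 4 genes passed on the probe set used, and in a fit over all probe sets the dimmer one of Zfp319 rose (limma adjusted p = 0.0151). In the same fit the dimmer probe set of Zfp407 fell (-0.20, limma adjusted p = 0.0118), while the one used did not pass (-0.15, limma adjusted p = 0.0959).

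The response was compared between the drug batches with an interaction term. With limma, 0 of 165 members passed (smallest adjusted p 0.478), and over all genes 0.00% passed. At an unadjusted p under 0.05 there were 10 members (6.06%), against 9.29% of all genes. Zfp248 had the smallest p. Its change was 0.09 in batch 1 of the drug and -0.48 in batch 2 (difference -0.57, SE 0.13, limma adjusted p = 0.478), beside a fall of 0.25 over both batches (limma adjusted p = 0.0438).

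All 165 members matched a protein-coding RefSeq gene with the same symbol, and 40 of them lie on chromosome 7. Of those 40, 20 fell and 2 rose (median -0.20), and of the other 125, 61 fell and 2 rose (median -0.18). Of 684 other genes on chromosome 7 with a signal of 6 or more, 50.7% fell (median -0.18), close to the 50.0% of members there. In the order of protein-coding genes, 32 members stood directly beside another member, in 15 runs with 17 adjacent pairs. Both genes fell in 7 pairs, neither passed in 3, and 1 of the 2 passed in 6. Among 5313 adjacent pairs of other genes at a signal of 6 or more, both fell in 32.1% and neither passed in 17.3%, against 41.2% and 17.6% of the 17 pairs, and the difference was not tested. In the remaining pair, on chromosome 16, Zfp174 rose and its neighbour Zfp597 fell (-0.30, SE 0.11, limma adjusted p = 0.0406). The Zfp597 arrays overlapped between the groups, with 6.04 to 6.53 after DMSO and 5.69 to 6.23 after SP600125. In the run Zfp84, Zfp30 and Zfp790 on chromosome 7 all 3 genes fell, with changes of -0.33, -0.19 and -0.26. The pairs Zfp382 and Zfp146 (-0.35 and -0.40) and Zfp763 and Zfp563 (-0.36 and -0.31) were among the pairs in which both fell.

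Most of the measured genes of the silencing machinery that KRAB proteins use were called lower. Of 34 genes listed, 30 were measured, 21 of these fell, none rose and 9 did not pass (median -0.24). That is 70.0% of the list, where 29.9% of all genes and 68.8% of other genes with a signal between 8 and 9 fell. The list's median DMSO signal was 8.47, but its signals ran from 3.32 to 10.61. Of other genes, 4.92% fell under 6, 38.5% between 6 and 7, 61.4% between 7 and 8 and 64.6% at 9 or more. The list was not weighted to these bins, and no difference was tested. Trim28, the corepressor itself, read 9.36, 9.33, 9.40, 9.43 and 9.42 after DMSO and 8.97, 9.15, 9.08, 8.94 and 9.02 after SP600125, without overlap (-0.36, SE 0.06, limma adjusted p = 0.000605). Setdb1 fell by 0.29 (SE 0.07) and the HP1 gene Cbx5 by 0.47 (SE 0.06). Uhrf1, which brings DNMT1 to replicated DNA, fell by 0.60 (SE 0.07), Dnmt1 by 0.40 (SE 0.06) and Dnmt3a by 0.45 (SE 0.07). The NuRD subunits Chd3 and Gatad2a fell by 0.51 (SE 0.08) and 0.47 (SE 0.06), while Cbx3 (-0.03, SE 0.07) and Sumo2 (-0.03, SE 0.06) did not pass. After quantile normalization 13 of the 30 fell and after cyclic loess 12. Of other genes at a signal of 6 or more, 33.5% and 25.2% fell under these scalings.

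Related zinc finger families at a signal of 6 or more gave smaller lists. Of 29 Zbtb genes, 12 fell and 1 rose (median -0.13), of 11 Zkscan and Zscan genes 5 fell and 1 rose (median -0.16), and of 12 Klf genes 2 fell and 3 rose (median -0.01). No difference between these families and the Zfp genes was tested.

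The labelled cell type was checked on markers. Signals after DMSO were 7.85 to 10.47 over the 7 neuronal markers, 3.47 to 5.73 over the 5 microglial markers and 3.93 to 5.14 over the 3 pluripotency markers. Some markers of other cells were bright too, and others were dim. The 5 fibroblast and endothelial markers ran from 4.82 (Pecam1) to 10.87 (Col1a1), and the 5 astrocyte markers from 5.18 (S100b) to 10.01 (Slc1a3). The 3 progenitor markers ran from 6.87 (Pax6) to 9.42 (Sox2) and the 4 measured oligodendrocyte lineage markers from 6.17 (Mbp) to 9.34 (Pdgfra). The mean of the neuronal markers ran from 8.93 to 9.35 on the DMSO arrays and from 8.53 to 9.14 on the SP600125 arrays, and 6 of the 7 fell. Of the 5 fibroblast and endothelial markers 2 fell (means 8.45 to 8.65 and 8.27 to 8.38), of the 5 astrocyte markers 2 (7.68 to 7.75 and 7.58 to 7.69) and of the 4 measured oligodendrocyte lineage markers 3 (8.20 to 8.27 and 7.92 to 8.11). Of the 3 progenitor markers 1 fell (8.01 to 8.11 and 7.61 to 7.71), Nes, by 1.34. Of the 5 microglial markers 3 rose (4.20 to 4.41 and 4.45 to 4.65). Beside these counts, 30.6% of other genes under a DMSO signal of 6 rose, the range in which all microglial markers lie. Of other genes, 4.92% fell under 6, 38.5% between 6 and 7 and 61.4% between 7 and 8. Between 8 and 9 the share was 68.8%, and at 9 or more 64.6%. All neuronal markers lie above 7. The markers' part in the members' changes was not tested.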

How the data were processed

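Each of 10 RNA samples was read on its own Affymetrix array after whole-transcript labelling (labels' protocols). The authors deposited log2 values for 35556 probe sets, and the submitters' processing notes list oligo 1.14.0. How arrays were corrected, scaled and summarized is not given in the sources used here, and the log2 scale was read from the values. A log2 array value compresses the change of a dim probe set. The deposited values were used as they are. Of the probe sets, 21789 carry 1 symbol in the platform annotation, which can be old, 1621 several and 12146 none. Those with several were left out, 39 with a Zfp symbol among them.

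All 19938 genes were fitted with limma 3.58.1 in R 4.3.3 (treatment and drug batch as terms, 7 residual degrees of freedom, two-sided), and the fit was tested on simulated data. Same-level values weight the medians and shares of other genes in the DMSO bins 6 to 7, 7 to 8, 8 to 9 and 9 or more by the members in each. The number of arrays limits the precision. Replicate letters were not used to pair arrays. Named members were the 10 largest falls and up to 6 largest rises past the threshold with arrays apart in both batches, the 3 highest signals, those nearest the threshold, the smallest interaction p, and a written list of known genes. Members and lists were chosen with earlier results of these data known. A planned grouping by protein sequence was not made, since no protein table was used here. Alternatives were other scalings, models, filters and member rules, and leaving out each array.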

Additional observations from a re-analysis of the deposited data

Results flagged for a closer look

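Among 64 groups of 5 arrays checked, 3 had 1 array far from the others, about the share that chance gives (about 1 in 20). The median difference of the 165 Zfp genes from their own DMSO means was -0.0774 on DMSO replicate b, where the other DMSO arrays lay between 0.00757 and 0.0216. Zfp719 read 6.96 on SP600125 replicate c and 6.68 to 6.75 on the other SP600125 arrays. Zfp871 read 8.92 on SP600125 replicate a and 9.03 to 9.07 on the other SP600125 arrays.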

How the results depend on the processing

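Over the alternatives run, the Zfp median stayed negative. Quantile normalization gave a median of -0.116, 52 falls and 13 cofactor falls. Cyclic loess gave -0.0770, 35 falls, 14 rises and 12 cofactor falls. Centring on all probe sets gave -0.283, 128 falls and 1 rise. Of other genes at a signal of 6 or more, 33.5%, 25.2% and 74.7% fell under these scalings, in the same order. Drug batch 1 alone, with 2 arrays a group, gave 0 falls, 0 rises and 0 cofactor falls with limma, and 1 of all genes passed. At an unadjusted p under 0.05 (limma) these counts were 29, 2 and 15, where 4913 of all 19938 genes passed. Members chosen by the mean over all arrays (158 genes) held 7 rises, those at a DMSO signal of 5.5 or more (225) 9 rises, and those at 7 or more (69) 33 falls, 0 rises and a median 0.0540 above the same-level median. Members chosen on DMSO of batch 2 had a median of -0.143 in batch 1. Leaving out 1 array gave 64 to 86 falls, 3 to 5 rises and medians of -0.20 to -0.17. For these member rules and left-out arrays the shares of other genes are not given here. Against their direction as deposited, Zfp871 stood at 0.0510 after quantile normalization, and Zfp871 (0.117), Zfp706 (0.0536), Zfp106 (0.0132), Zfp207 (0.0160) and Zfp292 (0.0531) after cyclic loess, none past the threshold, and Zfp248 at 0.0877 in drug batch 1. The cause was not tested.

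Same-letter arrays did not deviate together (correlations across genes from -0.208 to 0.101), and 1 of 5 DMSO arrays correlated best with its own letter. With the replicate letter as a block, 72 members fell and 4 rose, and the share of other genes in that fit is not given here.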
